A study of Mus musculus with 4 samples.

Results

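The genes described here are the 6 collagen IV chains Col4a1 to Col4a6, the nidogens Nid1 and Nid2, perlecan (Hspg2) and agrin (Agrn), which build or link the basement membrane next to laminin. They were taken by gene symbol from a table of 22802 gene loci, and all 10 had a row of their own. RNA was sequenced from interstitial cells of the testis of mFLE-Cre;CAG-CAT-EGFP mice on the C57BL/6J strain, at postnatal day 10 in every sample. Cells from dispersed testes had been sorted into EGFP-positive, laminin-negative and EGFP-positive, laminin-positive populations, with 2 samples of each. The series' design text describes EGFP in the laminin-negative cells as weak, so the populations may differ in EGFP as well as in laminin. The labels do not say which cells mFLE-Cre acts in, or whether samples of 1 population are from different animals. The p-values therefore cover the spread among these samples alone, and that spread may be technical.

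Basement membranes are sheets of extracellular matrix in which a laminin network and a collagen IV network are tied together by nidogen and by heparan sulfate proteoglycans such as perlecan and agrin. Collagen IV molecules are trimers: the chains of Col4a1 and Col4a2 form the network of nearly all basement membranes, those of Col4a3, Col4a4 and Col4a5 a network of more restricted sites such as the kidney glomerulus, and those of Col4a5 and Col4a6 a network known from smooth muscle. The genes lie in head-to-head pairs whose starts face each other, so that each pair is read outwards from a shared region. In the testis, a basement membrane lies between the Sertoli cells of the seminiferous tubule and the peritubular myoid cells around it, and others surround vessels and Leydig cells.

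The space between the paired gene starts differed between the pairs in the GENCODE M21 annotation (GRCm38). Col4a1 and Col4a2 overlapped by 22 bases at their starts, Col4a4 and Col4a3 were 71 bases apart, and Col4a6 and Col4a5 were 1308 bases apart. The sequences below show the whole stretch between Col4a4 and Col4a3, the pair with the largest difference between populations, and the upstream stretches of Col4a6 and Col4a5, the pair with the smallest. They come from RefSeq promoter windows on GRCm38.p6 and are written 5′ to 3′ on the strand given, with capitals marking a match to the CCAAT box, to the GC box GGGCGG, to the TATA box TATAAA or to the CArG box on either strand.
Col4a4 to Col4a3 (chr1:82586850-82586920, plus strand): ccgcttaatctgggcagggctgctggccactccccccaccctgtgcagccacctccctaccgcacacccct
Col4a6 upstream (chrX:141474096-141474326, minus strand): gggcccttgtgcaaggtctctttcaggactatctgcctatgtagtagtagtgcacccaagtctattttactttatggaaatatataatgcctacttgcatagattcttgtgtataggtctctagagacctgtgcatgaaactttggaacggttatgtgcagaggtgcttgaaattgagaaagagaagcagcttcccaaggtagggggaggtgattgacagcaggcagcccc
Col4a5 upstream (chrX:141475169-141475369, plus strand): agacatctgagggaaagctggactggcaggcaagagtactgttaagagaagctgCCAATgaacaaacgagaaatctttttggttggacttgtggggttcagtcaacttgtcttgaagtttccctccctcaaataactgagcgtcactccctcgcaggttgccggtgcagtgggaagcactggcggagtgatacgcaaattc
The stretch between Col4a4 and Col4a3 was 69% G and C and held none of these motifs, while the Col4a5 stretch held 1 CCAAT.

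Promoter windows of 250 bases before to 50 after the start were matched for 8 of the 10 genes. None was found for Col4a3 or Nid2, so the motif counts do not cover them. There were 9 windows, as Agrn had another one 11229 bases from its annotated start. GGGCGG, the GC box, was found in the windows of 7 of these 8 genes, all but Col4a4, against 35.7% of all 32851 windows of that length. The genes' windows ranged from 48.3% G and C (Col4a6) to 83.3% (Agrn), against a median of 52.7% over all windows. The comparison does not allow for that difference in base content. The GGGCGG matches of Col4a5 and Col4a6 are not within the stretches printed above, which end before the first annotated base of each gene. CCAAT was found for 4 of 8 (Col4a1, Col4a2, Col4a5 and Nid1), against 37.4% of all windows. TATAAA, found in 13.6% of windows, and the CArG box bound by serum response factor, found in 1.63%, were in none of the 8. The windows of Col4a1 and Col4a2 overlap and are not independent, and no match overlapped one of another motif in the printed stretches. A match describes letters in the window and was not tested as a site.

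All 6 collagen IV chains, perlecan and agrin were higher in the laminin-positive cells, and both nidogens were lower. The largest rise was that of Col4a3 at 14.5-fold and the largest fall that of Nid2 at 2.69-fold (ratios of group mean FPKM, which counts fragments relative to transcript length and to the mapped total). By limma on log2(FPKM + 1), with Benjamini-Hochberg adjustment over 12348 tested genes, 8 of 10 passed as higher and 2 as lower, and the libraries of the populations did not overlap for any of the 10. Over all tested genes 26.6% passed as higher and 26.3% as lower, 52.9% in all, and 77.2% did not overlap, so passing the test sets these genes little apart. A rise of at least 1 on the log2 scale was reached by 4 of the 10 (Col4a1, Col4a3, Col4a4 and Agrn), against 7.29% of tested genes. The median log2 difference of the 10 was 0.80, and that of all tested genes was 0.01. Every gene of the 10 was above 1 FPKM in all 4 libraries, so none entered the test through a single population.

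**Figure D1:**
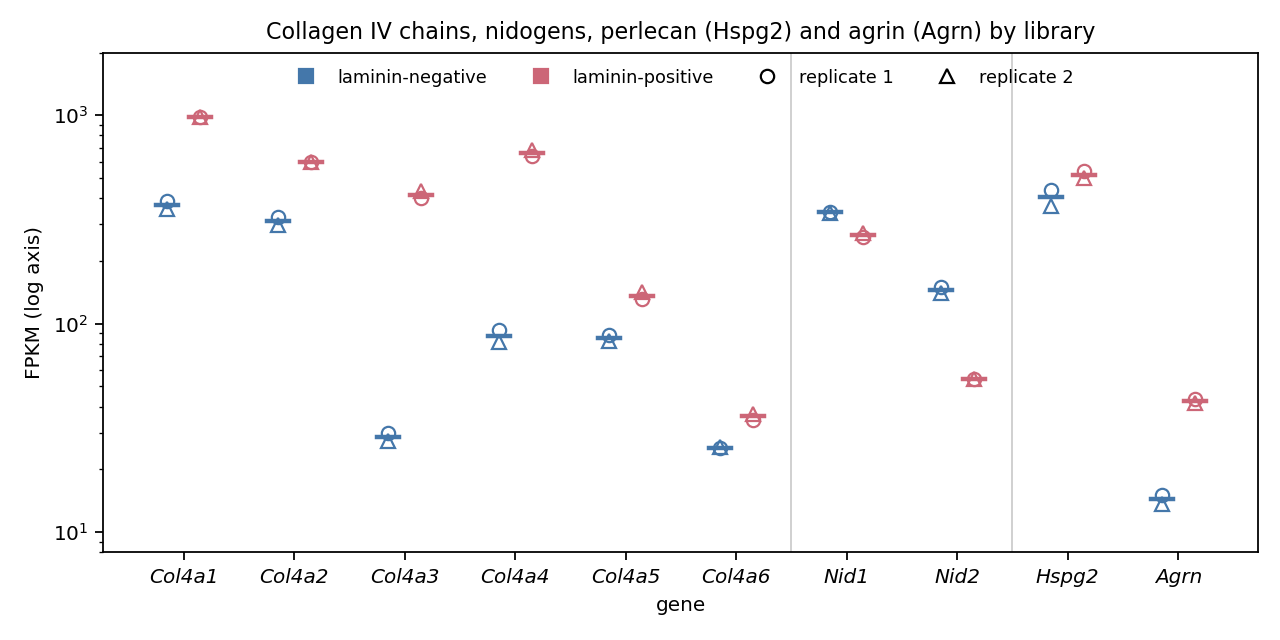
FPKM on a log axis for each of the 10 genes, with circles for replicate 1, triangles for replicate 2 and bars for the mean of the 2 libraries of a population. Laminin-positive libraries lie above laminin-negative ones for the collagen IV chains, Hspg2 and Agrn, and below them for Nid1 and Nid2.

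The libraries summed to between 491475 and 548986 FPKM. Tested genes numbered 3288 higher and 3245 lower, or 4255 and 2382 with libraries set to equal FPKM sums, a scaling whose sums left out the ribosomal RNA precursor Rn45s. That scaling moved the median log2 difference of all genes from 0.01 to 0.11. The directions of the 10 genes were the same under each scaling tried. The sources used here give no fragment totals, so no counting interval can be attached to a value. In sorted bulk samples, fewer cells of a type and less RNA per cell cannot be told apart.

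Col4a3 and Col4a4 differed most. Col4a3 (ENSMUSG00000079465.8, chromosome 1, 82586921 to 82722059, plus strand) stood at 29.8 and 27.4 FPKM in the laminin-negative and at 399.8 and 432 FPKM in the laminin-positive libraries. Both laminin-positive values were far above both others, and the difference on the log2 scale was 3.82 (SE 0.08, limma adjusted p = 7.48e-11). A difference of that size was larger than that of 99.5% of tested genes. In the laminin-negative libraries Col4a3 lay at the 77.0 and 78.7 percentiles of tested genes by FPKM, and in the laminin-positive ones at 98.5 and 98.6.

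Col4a4 (ENSMUSG00000067158.9, chromosome 1, 82448423 to 82586849, minus strand), the partner of Col4a3 in its gene pair and in its trimer, stood at 93.2 and 81.9 FPKM in the laminin-negative libraries. It reached 639 and 680.3 FPKM in the laminin-positive libraries, a 7.54-fold difference of the means. The log2 difference was 2.90 (SE 0.08, limma adjusted p = 6.84e-10). The populations were again widely separated, and Col4a4 was the second most abundant of the 10 in laminin-positive cells, after Col4a1.

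Col4a1 and Col4a2 encode the chains of the general network and were abundant in both populations. Col4a1 (ENSMUSG00000031502.11, chromosome 8, 11198423 to 11312826, minus strand) stood at 387 and 357 FPKM in the laminin-negative libraries and at 976 and 977 FPKM in the laminin-positive libraries. Its means of 372 ± 21.2 and 976 ± 0.863 FPKM (SD, n = 2 each) differed 2.62-fold, by 1.39 on the log2 scale (SE 0.08, limma adjusted p = 1.07e-07). It was the most abundant of the 10 in laminin-positive cells, above 99.3% of tested genes in replicate 1 and 99.4% in replicate 2.

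Col4a2 (ENSMUSG00000031503.13, chromosome 8, 11312805 to 11449287, plus strand) stood at 324 and 298 FPKM in the laminin-negative libraries. In the laminin-positive libraries it stood at 598 in both. The means differed 1.92-fold (log2 difference 0.94, SE 0.08, limma adjusted p = 2.03e-06), a smaller step than that of its partner Col4a1.

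Col4a5 and Col4a6 on the X chromosome differed least among the chains. Col4a5 (ENSMUSG00000031274.16, 141475385 to 141689234, plus strand), whose chain takes part in both restricted networks, stood at 88.3 and 82.9 FPKM in the laminin-negative libraries and at 131 and 142 FPKM in the laminin-positive libraries. That is a 1.59-fold difference (log2 difference 0.66, SE 0.08, limma adjusted p = 2.87e-05). The call was lost without variance shared across genes (adjusted p = 0.0532). Over the alternatives that kept every library, the limma adjusted p ran from 2.33e-06 to 0.0532. Col4a6 (ENSMUSG00000031273.16, 141165403 to 141474076, minus strand), the rarest chain in both populations, stood at 25.2 and 25.7 FPKM in the laminin-negative libraries and at 34.7 and 37.1 FPKM in the laminin-positive libraries. It was 1.41-fold higher (log2 difference 0.48, SE 0.08, limma adjusted p = 3.79e-04), with no overlap between the populations.

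**Figure D2:**
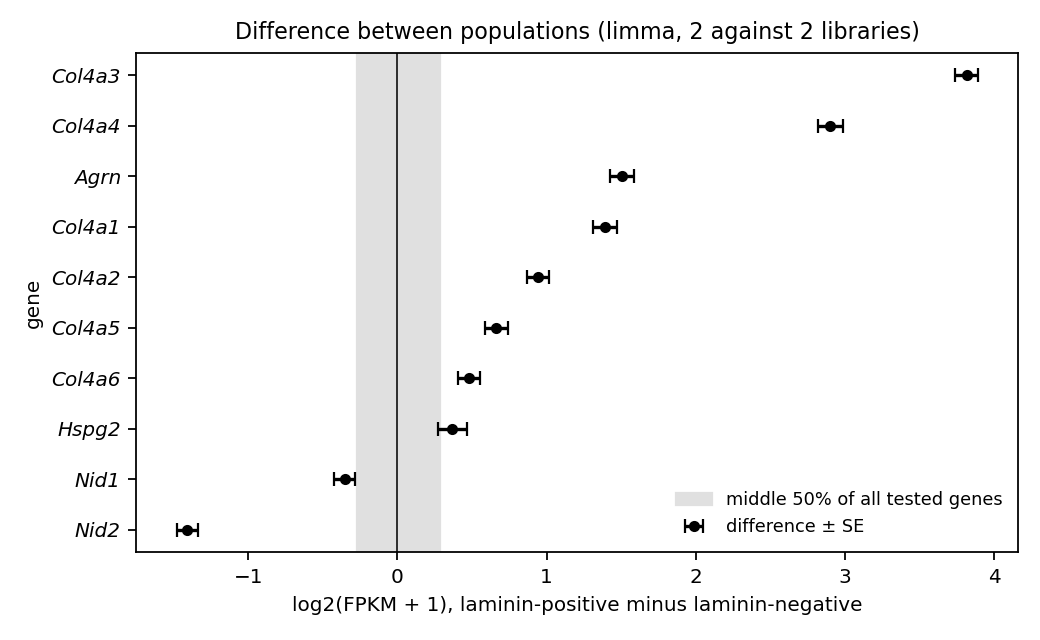
Difference in log2(FPKM + 1), laminin-positive minus laminin-negative, for each gene with its SE from limma, over 2 libraries of each population. The gray band spans the middle 50% of all tested genes, −0.27 to 0.29, and Col4a3 at 3.82 and Nid2 at −1.41 are the ends of the range.

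The chains of a head-to-head pair rose by unequal amounts. Within a library, FPKM is per length, so the chains can be set side by side. The ratio of Col4a4 to Col4a3 was 3.12 and 2.99 in laminin-negative and 1.60 and 1.57 in laminin-positive libraries. Col4a4 was thus the more abundant of the pair in every library, by a smaller margin in laminin-positive cells. The ratio of Col4a2 to Col4a1 was 0.838 and 0.834 in laminin-negative libraries and 0.613 and 0.612 in laminin-positive ones. Here too the replicates were close and the populations apart.

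The ratio of Col4a6 to Col4a5 moved least, from 0.286 and 0.309 to 0.266 and 0.262. On the log2 scale these ratios differed by −0.95 for Col4a4 to Col4a3, −0.45 for Col4a2 to Col4a1 and −0.17 for Col4a6 to Col4a5, laminin-positive minus laminin-negative. Spread between replicates, as a pooled SD, was 0.033, 0.0037 and 0.058. No library of one population fell within the range of the other for any of the pairs. An exact two-sided permutation test of 2 against 2 libraries gave p = 0.333 for each ratio, which is the smallest p this design allows.

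**Figure D3:**
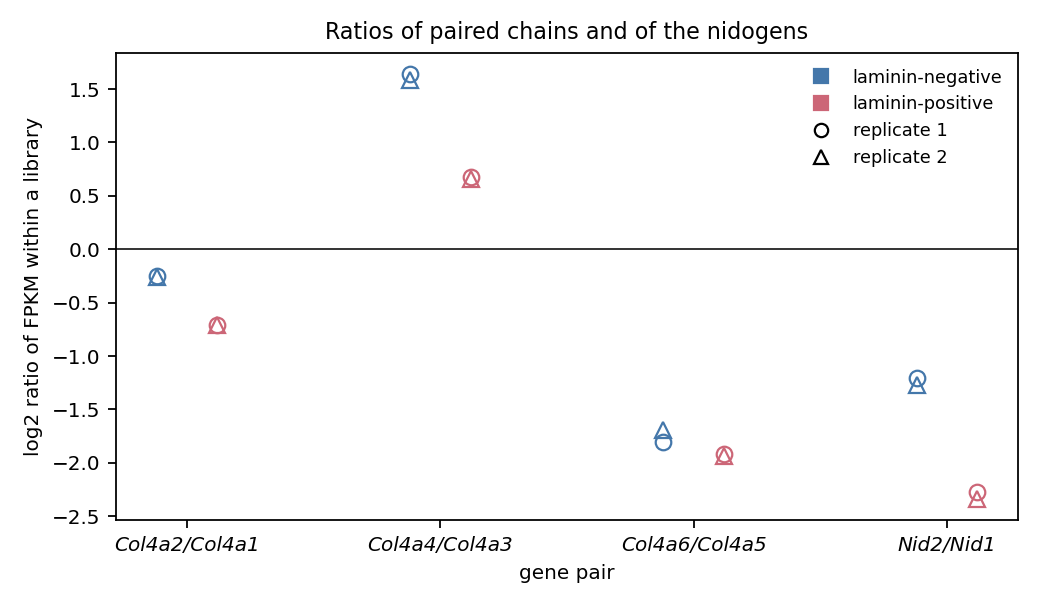
Log2 ratio of FPKM of the paired genes within each library, one symbol per library, with 0 where both genes have the same FPKM. All 4 ratios are lower in the laminin-positive libraries, by 0.95 for Col4a4/Col4a3 and by 1.07 for Nid2/Nid1.

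Summed over the 6 chains, collagen IV came to 948 and 873 FPKM in laminin-negative and to 2778 and 2866 FPKM in laminin-positive libraries, a 3.10-fold difference of the means. The makeup of that sum also differed. Col4a3 and Col4a4 together made up 13.0% and 12.5% in laminin-negative and 37.4% and 38.8% in laminin-positive libraries. Col4a1 and Col4a2 together made up 75.0 ± 0.011% in laminin-negative and 55.8 ± 1.21% in laminin-positive libraries (SD, n = 2 each), although the FPKM of each was higher in the latter. Col4a5 and Col4a6 made up 12.2 ± 0.331% and 6.10 ± 0.2% in the same order. For each of these shares the exact two-sided permutation test gave p = 0.333, its smallest value.

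Among the partners of the network built from Col4a3, Col4a4 and Col4a5, the least abundant chain was not the same in the populations. In laminin-negative cells it was Col4a3, at 28.6 ± 1.73 FPKM against 87.5 ± 7.95 for Col4a4 and 85.6 ± 3.76 for Col4a5 (SD, n = 2). In laminin-positive cells it was Col4a5, at 136 ± 7.75 FPKM against 416 ± 23.1 for Col4a3 and 659.8 ± 29.0 for Col4a4. The ratio of Col4a5 to Col4a3 was 2.96 and 3.03 in laminin-negative libraries and 0.327 and 0.328 in laminin-positive ones. Transcript levels say nothing of how many trimers were made.

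**Figure D4:**
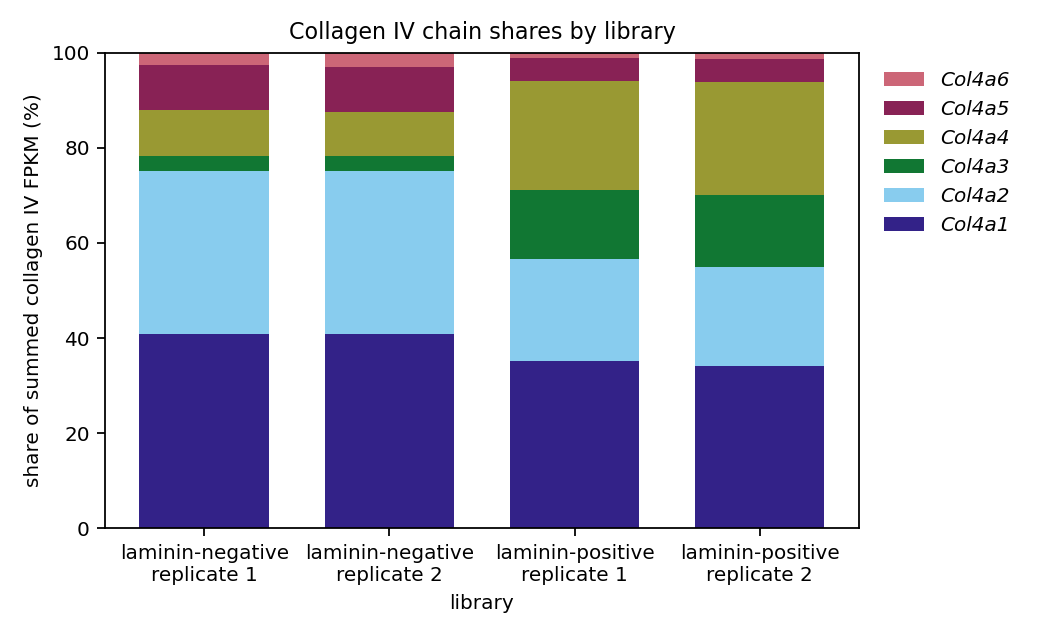
Share of each collagen IV chain in the summed FPKM of the 6 chains, in percent, as stacked bars for each library. Col4a3 and Col4a4 (green and olive) take 12.5% to 13.0% in the laminin-negative libraries and 37.4% to 38.8% in the laminin-positive ones.

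The nidogens, which bind both laminin and collagen IV, went the other way. Nid2 (ENSMUSG00000021806.4, chromosome 14, 19751265 to 19811787, plus strand) stood at 150.0 and 141 FPKM in the laminin-negative libraries and at 54.2 and 54.0 FPKM in the laminin-positive libraries. The log2 difference was −1.41 (SE 0.07, limma adjusted p = 4.86e-08), larger in size than that of 92.2% of tested genes. The annotated 3′ end of Nid2 overlaps Rtraf on the other strand by 437 bases. The table gives both genes 1 and the same locus, 19751256 to 19823823, so how fragments were divided between them is not known. Rtraf is listed in the table under the older symbol 2700060E02Rik at 84.4 to 107 FPKM across the libraries, with overlapping ranges in the populations.

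Nid1 (ENSMUSG00000005397.8, chromosome 13, 13437551 to 13512269, plus strand), the more abundant nidogen, stood at 345 and 339 FPKM in the laminin-negative libraries and at 262 and 273 FPKM in the laminin-positive libraries. It was 1.28-fold lower in laminin-positive cells (log2 difference −0.35, SE 0.07, limma adjusted p = 0.00175). With libraries set to equal FPKM sums, Rn45s left out of the sums, its log2 difference was −0.23 and it still passed. The ratio of Nid2 to Nid1 was 0.434 and 0.415 in laminin-negative and 0.207 and 0.198 in laminin-positive libraries (exact two-sided permutation p = 0.333, the smallest possible). Against the collagen IV sum, the 2 nidogens together came to 0.536 ± 0.019 in laminin-negative cells and 0.114 ± 0.00026 in laminin-positive cells (ratio of summed FPKM, SD, n = 2).

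Perlecan and agrin are large proteins that carry heparan sulfate, and agrin is best known for clustering acetylcholine receptors at the nerve-muscle synapse. Agrn (ENSMUSG00000041936.18, chromosome 4, 156165290 to 156197488, minus strand) stood at 15.1 and 13.7 FPKM in the laminin-negative libraries and at 43.4 and 41.8 FPKM in the laminin-positive libraries. It was 2.96-fold higher (log2 difference 1.50, SE 0.08, limma adjusted p = 9.06e-08), a step of about the size of that of Col4a1. From the rarest of the 10 genes in laminin-negative cells it moved above Col4a6 in laminin-positive ones.

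Hspg2 (ENSMUSG00000028763.17, chromosome 4, 137468769 to 137570630, plus strand) stood at 440.4 and 367 FPKM in the laminin-negative libraries and at 542 and 498 FPKM in the laminin-positive libraries. It had the widest spread between replicates of the 10 and the smallest rise, 1.29-fold (log2 difference 0.37, SE 0.10, limma adjusted p = 0.00812). Without laminin-negative replicate 2, the lower of its pair, the log2 difference was 0.24. The call was lost with no filter on low values (adjusted p = 0.0516) and without variance shared across genes (0.214). Over the alternatives that kept every library, the limma adjusted p ran from 6.28e-04 to 0.214. Perlecan transcripts outnumbered those of agrin per length by 28.0 ± 1.67 times in laminin-negative cells and 12.2 ± 0.403 times in laminin-positive cells (SD, n = 2).

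The order of the 10 genes by FPKM differed between the populations. In laminin-negative cells it ran from Hspg2 through Col4a1, Nid1, Col4a2, Nid2, Col4a4, Col4a5, Col4a3 and Col4a6 to Agrn. The replicate ranges of Hspg2 and Col4a1 overlapped, as did those of Col4a4 and Col4a5, and no other neighbors in that order overlapped. In laminin-positive cells the order ran from Col4a1 through Col4a4, Col4a2, Hspg2, Col4a3, Nid1, Col4a5, Nid2 and Agrn to Col4a6, with no overlap between neighbors.

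Of the genes tested, the 3 closest to Col4a3 by Euclidean distance of log2(FPKM + 1) over the 4 libraries were Mylk, Casq2 and Tpm2, at distances of 0.243, 0.948 and 0.980. Mylk, the gene of myosin light chain kinase, averaged 32.0 ± 3.67 FPKM in the laminin-negative and 403 ± 32.1 FPKM in the laminin-positive libraries (SD, n = 2). The 3 closest to Nid2 were Aebp1, Myl12b and Serpinb6a, at 0.166, 0.303 and 0.304. Aebp1 averaged 136 ± 13.8 and 55.3 ± 0.269 FPKM.

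Other basement membrane genes were counted in lists by role, to be read against the 26.6% of all tested genes that were higher and the 26.3% that were lower. Among them, Lama5, Npnt, Colgalt2 and Musk were below 1 FPKM in both laminin-negative libraries. These genes entered the test through the laminin-positive libraries alone, which fixed their direction. Of 8 tested laminin chains, the partners of collagen IV in the sheet, 4 were higher (Lamc3, Lamb2, Lama5 and Lama2) and 2 lower (Lama4 and Lama1). The 8 had a median log2 difference of 0.42. The cells were sorted by laminin, so the levels of its chains are not independent of how the populations were defined. Lama1 lost its call without variance shared across genes (limma adjusted p = 0.0689). The summed laminin chains differed 2.02-fold, less than the collagen IV sum. Without Lamc3 the laminin sums were 1061 and 1024 FPKM in laminin-negative and 1459 and 1449 FPKM in laminin-positive libraries. With Lamc3 kept, the ratio of collagen IV to laminin FPKM was 0.659 and 0.63 in laminin-negative and 0.964 and 1.02 in laminin-positive libraries (exact two-sided permutation p = 0.333). Of 10 tested other components 3 were higher (Frem1, Npnt and Tinagl1) and 6 lower, with a median of −0.40. Papln, which encodes papilin, fell from 22.2 ± 0.9 to 3.98 ± 0.385 FPKM (SD, n = 2), while Frem1 rose from 1.25 ± 0.139 to 21.1 ± 1.50 FPKM.

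Genes that fold, carry and crosslink collagen IV were split, with 5 of 16 tested higher (P4ha2, Plod1, Colgalt2, Serpinh1 and Pxdn), 6 lower and a median log2 difference of −0.15. In all, 7 passed without laminin-positive replicate 1 and also 7 without laminin-positive replicate 2, and 6 without variance shared across genes. Pxdn, the peroxidase that forms the sulfilimine crosslinks of collagen IV, rose from 69.4 ± 3.01 to 98.3 ± 2.48 FPKM. Serpinh1, the collagen chaperone, was at 689.6 ± 22.0 and 827 ± 0.148 FPKM and lost its call without variance shared across genes (limma adjusted p = 0.0601), without laminin-positive replicate 1 (0.114) and without laminin-positive replicate 2 (0.116). Loxl2, a lysyl oxidase that crosslinks collagen IV, fell from 43.0 ± 4.43 to 7.75 ± 0.646 FPKM. Plod2, a lysyl hydroxylase, fell from 63.1 ± 2.23 to 29.7 ± 1.53 FPKM while its paralog Plod1 rose from 59.6 ± 0.964 to 101 ± 1.18 FPKM.

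Receptors of collagen IV, perlecan and agrin were higher in 6 of 7 tested cases, Musk through its laminin-positive libraries alone, and lower in 0, with a median log2 difference of 0.52. Of all tested genes 26.6% were higher. Without variance shared across genes 3 passed as higher. Itga1, the subunit of the collagen IV integrin, rose from 1.17 ± 0.222 to 35.5 ± 1.15 FPKM. Musk, the receptor kinase that answers to agrin, rose from 0.251 ± 0.0394 to 2.74 ± 0.215 FPKM (SD, n = 2), a low level in both populations. Dystroglycan (Dag1), which binds perlecan and agrin, was at 103 ± 2.35 and 113 ± 2.48 FPKM and did not pass (limma adjusted p = 0.147).

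Of 7 tested proteases and inhibitors, 2 were higher (Mmp2 and Timp3) and 3 lower (Mmp14, Bmp1 and Timp1), with a median log2 difference of −0.24. The gelatinase gene Mmp2, whose product cleaves collagen IV, rose from 101 ± 2.64 to 216 ± 7.96 FPKM. The inhibitor gene Timp3 rose from 37.6 ± 1.21 to 240.3 ± 18.6 FPKM, and Timp1 fell from 60.0 ± 3.82 to 28.7 ± 0.839 FPKM. Mmp3 and Mmp7 are listed at 0 in every library.

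**Figure D5:**
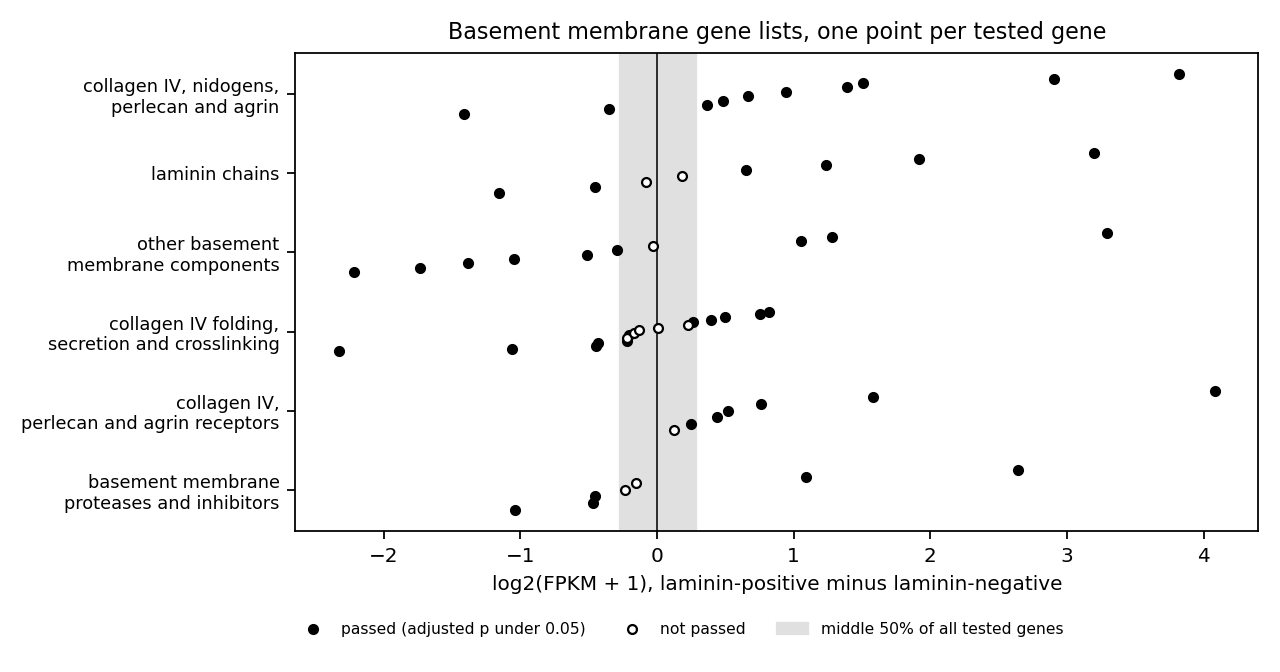
Difference in log2(FPKM + 1), laminin-positive minus laminin-negative, with one point per tested gene in each list and open points for genes that did not pass. Receptors lie to the right of 0 in every tested case, while the other lists hold genes on both sides.

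Several cell types that can make basement membrane differed between the sorts in their markers. Marker counts here and in the next paragraph are to be read against all tested genes, of which 26.6% were higher and 26.3% lower. All 8 smooth muscle and peritubular myoid markers were higher in laminin-positive cells, and their summed level ran from 162 to 177 FPKM in laminin-negative and from 5467 to 5532 FPKM in the laminin-positive libraries. All 6 Leydig cell markers were lower, with sums of 4568 to 4823 and 161 to 207 FPKM, most of it from a row that merges Insl3 with Jak3. Acta2 was the highest of the smooth muscle markers.

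Some markers were below 1 FPKM in both libraries of one population and entered the test through the other alone, which fixed their direction. Sertoli cell markers were higher in 5 of 7 tested cases, 2 of them (Amh and Dhh) by that route, with sums of 17.6 to 20.1 FPKM in laminin-negative and 41.3 to 55.0 FPKM in the laminin-positive libraries. Sox9 and Gata1 did not pass, at log2 differences of −0.31 and 0.03. Cldn11 was the highest of the Sertoli cell markers in laminin-positive cells, at 16.7 ± 5.28 FPKM (SD, n = 2). All 7 tested macrophage markers were higher, with sums of 4.03 to 5.19 and 34.4 to 41.3 FPKM, but 6 of the 7 were tested through their laminin-positive values alone. Of 5 tested endothelial markers 2 were higher (Emcn and Esam) and 2 lower (Cdh5 and Tek). Among those that passed, the filter fixed the direction of all but Cdh5. Egfl7 was tested through both populations and did not pass (log2 difference 0.10, limma adjusted p = 0.565). The endothelial sums were 174 to 181 FPKM and 24.8 to 25.7 FPKM, and without Cdh5 they were 8.24 to 9.10 and 15.6 to 15.8 FPKM, the opposite direction. In the laminin-negative libraries Tie1 was listed at 0 and Pecam1 averaged 0.133 ± 0.0103 FPKM (SD, n = 2). Of 8 tested germ cell markers 6 were higher, 2 of them (Ddx4 and Stra8) through their laminin-positive values alone, and 1, Kit, was lower. Their sums were 50.1 to 51.4 and 31.1 to 31.3 FPKM, and without Kit 11.4 to 14.0 and 28.7 to 29.4 FPKM, the opposite direction. The part of these cell types in the differences of the basement membrane genes was not tested.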

How the data were processed

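RNA sequencing of 2 laminin-negative and 2 laminin-positive samples was analysed from 1 table. Its values are FPKM per gene locus as the authors deposited them, per the file headers, and TopHat2 2.1.1 and Cufflinks 2.2.1 are named, with no role, in the submitters' processing notes. Libraries had been prepared with a directional kit, per the labels' protocols, but neither the genome build and annotation nor the strand setting of the counting or a scaling across libraries is given in the sources used here. Without a known strand setting, reads of overlapping genes on opposite strands cannot be told apart. Besides Rtraf at Nid2, the longest such overlaps were with C430014B12Rik at Col4a3 (30132 bases), Gm15419 at Col4a2 (18707), Gm48682 at Nid1 (8063) and Gm15418 at Col4a1 (6081), for which no row was matched by symbol. Of 21476 rows whose symbol names 1 GENCODE M21 gene (GRCm38), 98.9% overlapped that gene, and its coordinates are given.

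Genes with at least 1 FPKM in at least 2 libraries were tested with limma 3.58.1 (R 4.3.3) on log2(FPKM + 1), two-sided, with variances moderated by empirical Bayes along an intensity trend, all 4 libraries in the fit and no block. A difference on this scale understates the change of low genes. The threshold was a Benjamini-Hochberg adjusted p of 0.05 over all tested genes. The fit has 2 residual degrees of freedom and borrows a median of 8.21 across genes, and it was tested on simulated data. Single ratios and shares were set against an exact permutation test in scipy 1.17.1. Members and gene lists were chosen with earlier results of these data known. Named were all 10 members, the 2 largest rises and falls of a list or all where 5 or fewer passed, of which some are given in counts only, the 3 genes closest to Col4a3 and Nid2, and markers that are the highest of their list or at 0. Pecam1, Tie1, Kdr, Egfl7, Sox9 and Gata1 were added after their values were seen. Alternatives were another pseudocount (0.1), no filter or 5 FPKM, 3 scalings, 2 variance models, a replicate block and each library left out.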

Additional observations from a re-analysis of the deposited data

How the results depend on the processing

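All 10 genes kept their direction under all 13 alternatives. Where every library was kept, only Hspg2 and Col4a5 lost a call, in the settings given above. With a library left out, 10 of 10 and 4872 to 6213 of all tested genes were called, but 1 population then has a lone sample, assumed to vary like the other population. These fits have 1 residual degree of freedom, and without a laminin-positive library the moderation gave genes of a like level 1 shared variance, so their p-values say nothing of stability. Without variance shared across genes 8 of 10 passed, and 2557 of all tested genes against 6533 (5244 at an unadjusted p under 0.05), and lists fell to 6 (folding and crosslinking, from 11) and 3 (receptors, from 6). Counts of the lists were recomputed as an addition made after the data were seen, and the folding list ranged from 7 to 12 with a library left out. Under quantile normalization the share of Col4a3 and Col4a4 differed by 24.3 percentage points against 25.4, and the log2 ratios differed by −0.56 for Col4a2 to Col4a1 and −0.23 for Col4a6 to Col4a5. With the replicate block, 10 of 10 and 6719 genes passed. Same-numbered libraries did not deviate together from their population means (r = 0.0081 across genes). With so few libraries, that cannot show whether they share animals or a sort. Depth is unknown, which limits low genes most.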
